A study of Mus musculus with 4 samples.

Results

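The genes described here are Tnf and 9 genes that respond to TNF or to NF-kappa-B: Tnfaip3, Nfkbia, Nfkbiz, Zc3h12a, Relb, Birc3, Ier3, Icam1 and Tnfaip2. They were chosen by name, and all 10 were found among the 17570 genes with a symbol. They were measured in tumours of SCC7, a single mouse squamous carcinoma line, transplanted under the skin of wild-type C3H/HeN mice, with 2 control libraries and 2 libraries from mice given an antibody against CD71 (the transferrin receptor, an iron importer) on days 6 and 9. Every tumour was taken on day 10, and the treatment of the control mice, the age of the mice and the number of animals behind a library are not given in the labels. The values are TPM, an abundance normalised for transcript length and library total, so levels can be compared between genes, but TPM keeps no record of read depth.

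TNF is an inflammatory cytokine that binds 2 receptors and, through a chain of adaptor proteins and kinases, releases NF-kappa-B transcription factors from inhibitor proteins held in the cytoplasm. Among the genes that NF-kappa-B switches on are its own inhibitors, so a burst of signalling is normally followed by a rise of genes that end it. In tumours the same targets are transcribed by carcinoma cells, macrophages, neutrophils and endothelium, and a bulk library cannot tell fewer cells of a type from less RNA per cell.

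Ier3 rose in anti-CD71 tumours, and it was the only one of the 10 genes that passed the test, both over 4 libraries and over the 3 complete ones. Ier3 encodes a short-lived early response protein that modulates cell survival. In anti-CD71 replicate 2 the remaining 9 genes lay within 0.44 log2 units of the control mean and did not pass. Of these, Nfkbia and Tnfaip3 lay above both controls, Relb lay between them, and Tnf, Nfkbiz, Zc3h12a, Birc3, Icam1 and Tnfaip2 lay below both. In the comparison over 3 libraries, anti-CD71 replicate 2 is the only treated one. Outside the 10 genes, the targets Cxcl1, Cxcl3, Il1b and Ptgs2 rose over 3 libraries and Cxcl2 over 4. The targets Cd83 and Bcl2a1d fell in both, and Bcl2a1b, Cebpd and the chemokine gene Ccl5 fell over 3 libraries. These calls, that of Ier3 included, were lost with no filter on low values.

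Start-site windows from RefSeq (GRCm38.p6, the build of the files), from 250 bases before to 50 bases after a transcript start, were present for 8 of the 10 genes, with 2 windows for Tnfaip3 and none for Nfkbiz and Relb. For 5 of these genes and the first Tnfaip3 window that start is the outer end of the gene, while it lies 35 bases inside Birc3 and 211 bases inside Tnfaip2, and that of the second Tnfaip3 window 3447 bases inside the gene. They were searched on both strands for the kappa-B consensus, the usual recognition motif of NF-kappa-B. Of the 8 genes, 4 held a match (Ier3, Nfkbia, Tnfaip3 and Tnfaip2), against 8.5% of all 32851 windows. The windows of Ier3, Nfkbia and Tnfaip3 are printed because these are the genes that lay above both controls in anti-CD71 replicate 2, and that of Tnf because it is the ligand and its window held no match. They run 5′ to 3′ on the strand of the gene, with matches to the consensus in capitals. They cover chr17:35821463-35821762 (plus strand) for Ier3, chr12:55492598-55492897 (minus) for Nfkbia, chr10:19015361-19015660 (minus) for Tnfaip3 and chr17:35201958-35202257 (minus) for Tnf.
Ier3: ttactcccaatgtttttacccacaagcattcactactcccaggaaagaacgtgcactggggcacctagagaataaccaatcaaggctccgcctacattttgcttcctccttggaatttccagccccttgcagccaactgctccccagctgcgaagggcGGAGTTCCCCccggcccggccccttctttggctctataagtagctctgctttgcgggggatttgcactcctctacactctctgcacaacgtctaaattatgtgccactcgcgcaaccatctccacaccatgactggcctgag
Nfkbia: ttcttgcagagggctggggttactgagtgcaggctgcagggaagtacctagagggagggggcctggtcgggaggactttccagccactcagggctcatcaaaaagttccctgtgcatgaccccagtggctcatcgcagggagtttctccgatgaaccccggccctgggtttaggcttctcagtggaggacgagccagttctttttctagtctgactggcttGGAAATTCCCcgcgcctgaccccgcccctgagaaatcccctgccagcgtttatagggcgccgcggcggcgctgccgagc
Tnfaip3: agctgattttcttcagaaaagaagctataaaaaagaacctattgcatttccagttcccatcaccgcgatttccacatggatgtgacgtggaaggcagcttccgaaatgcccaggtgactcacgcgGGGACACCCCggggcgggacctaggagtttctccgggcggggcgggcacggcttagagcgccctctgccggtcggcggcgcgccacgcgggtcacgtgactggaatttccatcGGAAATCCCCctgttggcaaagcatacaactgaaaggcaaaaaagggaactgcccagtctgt
Tnf: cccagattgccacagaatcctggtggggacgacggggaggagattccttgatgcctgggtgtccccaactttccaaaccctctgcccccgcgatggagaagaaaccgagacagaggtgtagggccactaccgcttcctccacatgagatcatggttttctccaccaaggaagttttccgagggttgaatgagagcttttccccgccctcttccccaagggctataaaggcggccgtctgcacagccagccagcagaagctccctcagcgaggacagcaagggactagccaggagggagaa
The match began 92 bases before the start of Ier3 and 29 before that of Nfkbia, and the 2 matches of Tnfaip3 began 125 and 12 bases before its start. Tnfaip2 held 1 match, 24 bases before the transcript start of its window and thus inside the gene. The core TATAAA, also searched on both strands and present in 13.6% of all windows, was found for 4 of the 8 genes. These were Tnf, Tnfaip3, Nfkbia and Icam1. For Nfkbia the match was only on the strand opposite to the gene. Counted in bases before the start, TATAAA lay at 29 for Tnf, 225 for Tnfaip3, -19 for Nfkbia and -13 for Icam1. For Nfkbia and Icam1 it thus lay after the start. TGANTCA, the core bound by AP-1 and present in 7.8%, was found for Tnfaip3 alone. A match is a stretch of letters and no measurement of binding, and these windows leave out any site farther from the start.

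Both control files and that of anti-CD71 replicate 2 held 59881 transcripts each. The file of anti-CD71 replicate 1 breaks off, as used here, with 13586 transcripts (22.69%), and the others are treated as missing, not as 0. Ier3, Tnfaip3, Tnfaip2 and Zc3h12a had at least 90% of their TPM in transcripts listed for that library and were tested over 4 libraries. Tnf had 25.0% and Birc3 4.53% listed, and Nfkbia, Nfkbiz, Relb and Icam1 had no listed transcript, so these 6 were not tested over 4 libraries. A comparison of anti-CD71 replicate 2 alone with the 2 controls covered all 10 genes, and it assumes that a lone treated library varies like the controls. Across the 1562 genes tested over 4 libraries, log2 differences between the treated libraries had an SD of 0.294, against 0.222 between the controls. Calls are at a Benjamini-Hochberg adjusted p under 0.05 by limma, over all genes tested, and log2 changes are of TPM + 1. Over 4 libraries 0.832% of the tested genes were called higher and 3.46% lower, and over 3 libraries 0.476% and 2.39% of 11979. Over 3 libraries that excess of lower calls (57 higher, 286 lower) turned to 60 higher and 12 lower with a filter of 1 TPM in 1 library. With median scaling of the libraries the split over 4 libraries went from 13 higher and 54 lower to 21 and 36. The labels do not say that replicates came from separate mice, so the p-values measure only the spread between these libraries. Both fits were also run on simulated data whose noise was set in advance and not estimated from these libraries. On those data the fit over 3 libraries missed most changes of 1 log2 unit, and the fit over 4 missed fewer. Recovery in these libraries may differ, and a gene that did not pass is not shown to be unchanged. In that simulation the fit over 3 libraries recovered 3% and 80% of 100 changes each of 1 and 2 log2 units, beside 17 false calls. The fit over 4 libraries made 3 false calls. Calls over 3 libraries are not shown to keep to the rate of false calls that the threshold sets. With its noise set in advance, the simulation cannot give that rate for these libraries. An exact permutation test of 2 against 2 cannot go below p = 0.333.

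**Figure D1:**
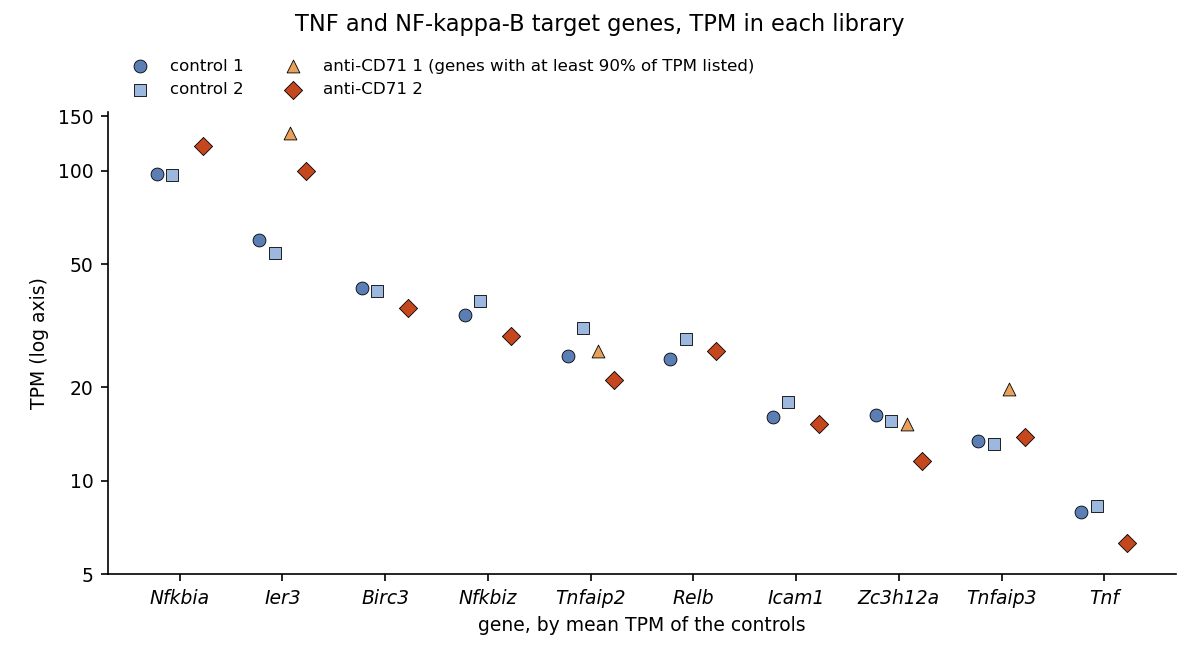
TPM (log axis) of the 10 genes in each library, ordered by the mean of the controls; circles and squares are the 2 controls, diamonds anti-CD71 replicate 2, and triangles anti-CD71 replicate 1 for the 4 genes with at least 90% of their TPM listed. Ier3 stood at 132.51 and 99.66 TPM over listed transcripts in the treated libraries, above both controls, and over listed transcripts Tnfaip3 also lay above and Zc3h12a below both controls in each treated library.

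Ier3 stood at 59.56 and 53.9 TPM in the controls, counting the transcript that all 4 files list, and at 132.51 and 99.66 TPM in anti-CD71 replicates 1 and 2. Both treated libraries lay above both controls, a position that 28.3% of the 1562 tested genes shared. The gene rose from 56.73 ± 4.0 to 116.08 ± 23.23 TPM (SD, n = 2 each), a log2 change of 1.01 (SE 0.14, 95% interval 0.65 to 1.36, limma adjusted p = 0.0389). Each treated library also passed alone against the controls, replicate 1 with a log2 change of 1.21 (adjusted p = 0.00774) and replicate 2, over all transcripts, with 0.80 (SE 0.10, adjusted p = 0.0317). In the test of replicate 1 alone 0.71% of 1549 genes were called higher and 1.42% lower. Both tests of a lone treated library share the same 2 controls and overlap the fit over 4 libraries, so they add no separate evidence. A lone treated library also gives no spread of its own. In replicate 2, 3.4% of the tested genes had a larger absolute change. Ier3 is a gene on chromosome 17 from 35821713 to 35822911. RefSeq entries of its transcript at 2 further places, not shown to be separate genes, added at most 0.36 TPM to a library.

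The call of Ier3 was lost in several settings, while its direction was not. Over 4 libraries the adjusted p was 0.204 without control replicate 1 and 0.348 without control replicate 2, with log2 changes of 1.08 and 0.94. It was 0.0752 with the replicate number as a block, 0.0602 without an intensity trend in the variance prior, 0.052 with a filter of 1 TPM in 1 library, 0.171 with no filter and 0.116 when any gene with a listed transcript was tested. Over 3 libraries the same change in prior and filters gave 0.112, 0.129 and 0.205.

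Tnf, the ligand, had the lowest level of the 10 genes. It stood at 7.92 and 8.32 TPM in the controls and at 6.28 TPM in anti-CD71 replicate 2, which lay below both. That was 77.3% of the control mean and did not pass (log2 change -0.32, SE 0.12, 95% interval -0.64 to -0.01, adjusted p = 0.189). RefSeq enters the same transcript of Tnf, NM_013693, at 4 places in this build, which are not shown to be separate genes. Within each complete library the 4 entries had equal values. These were 1.98 and 2.08 TPM a copy in the controls and 1.57 TPM in anti-CD71 replicate 2. With the copies at further loci left out, the log2 change in that treated library was -0.24 (SE 0.20). The copy listed for anti-CD71 replicate 1 stood at 2.2 TPM, above both controls, so the treated libraries lay on opposite sides of the controls. Over that copy the log2 change was -0.08 (SE 0.22, adjusted p = 0.868). Tnf lies on chromosome 17 from 35199367 to 35202007.

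The receptor side of the pathway is given by its values. Few of all tested genes were called, so an absence of calls in a short list is no result about that list. Of 24 TNF receptor and adaptor genes, 23 were tested over 3 libraries and 0 were called, with 5 at an unadjusted p under 0.05 and a median log2 change of -0.08, beside -0.0082 over all tested genes. Tnfrsf1a, the broadly expressed TNF receptor, stood at 90.24 and 94.9 TPM in the controls and at 84.13 TPM in anti-CD71 replicate 2 (log2 change -0.14, adjusted p = 0.357). Rbck1, a subunit of the ubiquitin ligase complex that builds linear chains, stood at 80.8, 83.83 and 83.19 TPM (0.02, adjusted p = 0.923). None of these 24 genes was listed fully enough for a test over 4 libraries.

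Nfkbia and Tnfaip3 encode the best known feedback inhibitors. Nfkbia, which makes the inhibitor that holds NF-kappa-B in the cytoplasm, was the most abundant of the 10 genes, above 88.7% of tested genes. It stood at 97.69 and 97.18 TPM in the controls and at 120.41 TPM in anti-CD71 replicate 2, or 123.6% of the control mean. The treated library lay above both controls by more than their spread, yet the log2 change of 0.30 (SE 0.07, 95% interval 0.11 to 0.49) did not pass over all genes (adjusted p = 0.0985). A position above both controls was taken by 39.5% of tested genes in this library. Nfkbia lies on chromosome 12 from 55489409 to 55492647.

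Tnfaip3 encodes A20, a ubiquitin-editing enzyme that shuts down signalling from the TNF receptor. Over its listed transcripts it stood at 11.66 and 12.47 TPM in the controls, against 19.8 TPM in anti-CD71 replicate 1 and a lower 13.47 TPM in replicate 2. Both treated libraries lay above the controls, but replicate 1 by 0.67 and replicate 2 by 0.15 log2 units. The gene did not pass over 4 libraries (log2 change 0.41, SE 0.18, 95% interval -0.03 to 0.85, adjusted p = 0.214). It did not pass in replicate 1 alone (adjusted p = 0.0526) or in replicate 2 alone over all transcripts (0.06, adjusted p = 0.769). Tnfaip3 lies on chromosome 10 from 19000910 to 19015410.

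Nfkbiz encodes a nuclear cofactor of NF-kappa-B that is needed for a subset of its secondary targets. It stood at 34.26 and 38.06 TPM in the controls and at 29.3 TPM in anti-CD71 replicate 2, below both (log2 change -0.29, SE 0.10, 95% interval -0.56 to -0.03, adjusted p = 0.175). The transcript NM_001159394 held 88.1% and 92.3% of its TPM in the controls and 89.3% in the treated library. Nfkbiz lies on chromosome 16 from 55811375 to 55838954.

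Zc3h12a encodes an RNase that degrades cytokine messages. It stood at 16.36 and 15.63 TPM in the controls, with 15.26 TPM in anti-CD71 replicate 1 and a lower 11.55 TPM in replicate 2. Both treated libraries lay below both controls, which 31.1% of tested genes shared, but replicate 1 only by 0.06 log2 units from the control mean against 0.44 for replicate 2. The change did not pass over 4 libraries (log2 change -0.25, SE 0.14, adjusted p = 0.3) or in replicate 2 alone (-0.44, SE 0.10, adjusted p = 0.0914). Zc3h12a lies on chromosome 4 from 125118414 to 125127881.

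The other feedback inhibitors are a short list as well, so an absence of calls is no result about them. All 19 of the list were tested over 3 libraries, with 0 called, 4 at an unadjusted p under 0.05 and a median log2 change of 0.0034. Zfp36l2, which destabilises messages with AU-rich elements, stood at 183.74 and 205.61 TPM in the controls and at 203.32 TPM in anti-CD71 replicate 2. Tax1bp1, an adaptor that works with A20, stood at 105.91, 97.32 and 106.49 TPM. Over 4 libraries 5 of the list were tested and 0 called.

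Relb, the subunit of NF-kappa-B that acts mainly in the slower non-canonical branch, stood at 24.63 and 28.59 TPM in the controls and at 26.28 TPM in anti-CD71 replicate 2. The treated library lay between the controls (log2 change -0.014, SE 0.12, 95% interval -0.32 to 0.29, adjusted p = 0.958), and the sign turned with median scaling (0.028) and without control replicate 2 (0.09). Relb lies on chromosome 7 from 19606217 to 19629438. Among the 10 other subunit and kinase genes 0 were called over 3 libraries, with 3 at an unadjusted p under 0.05 and a median log2 change of -0.09. Nfkb2 stood at 105.06, 98.16 and 93.6 TPM and Nfkb1 at 83.49, 85.7 and 81.51 TPM in the 2 controls and the treated library. Both encode precursors of NF-kappa-B subunits.

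Birc3 encodes a ubiquitin ligase that keeps TNF signalling on the survival side. It stood at 41.76 and 40.88 TPM in the controls and at 36.06 TPM in anti-CD71 replicate 2, below both (log2 change -0.19, SE 0.09, 95% interval -0.41 to 0.03, adjusted p = 0.246). Its 2 transcripts listed for anti-CD71 replicate 1 are minor ones. Of these, XM_011242353 stood at 0.32 and 0.82 TPM in the controls and 2.29 and 1.83 TPM in the treated libraries, and XM_006509831 at 1.34 and 0.85 against 0 and 0.22 TPM. These estimates of 2 models of 1 gene, at low levels, differed in opposite directions and were not tested apart. Their sum, at 1.66 and 1.67 against 2.29 and 2.05 TPM, did not pass (log2 change 0.25, adjusted p = 0.532). Birc3 lies on chromosome 9 from 7847468 to 7873205.

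Icam1 and Tnfaip2 are effector targets. Icam1, an adhesion molecule to which leukocytes bind, stood at 16.08 and 17.99 TPM in the controls and at 15.22 TPM in anti-CD71 replicate 2 (log2 change -0.15, SE 0.11, 95% interval -0.44 to 0.14, adjusted p = 0.454). The treated library lay just below both controls, as did 42.5% of tested genes. Tnfaip2, which is induced by TNF and promotes membrane protrusions, stood at 25.21 and 31.14 TPM in the controls, with 26.23 TPM in anti-CD71 replicate 1 and a lower 21.21 TPM in replicate 2. Replicate 1 lay between the controls and replicate 2 below them, and the change did not pass over 4 libraries (log2 change -0.24, SE 0.14, adjusted p = 0.333). Icam1 lies on chromosome 9 from 21015940 to 21028814 and Tnfaip2 on chromosome 12 from 111442450 to 111455018.

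**Figure D2:**
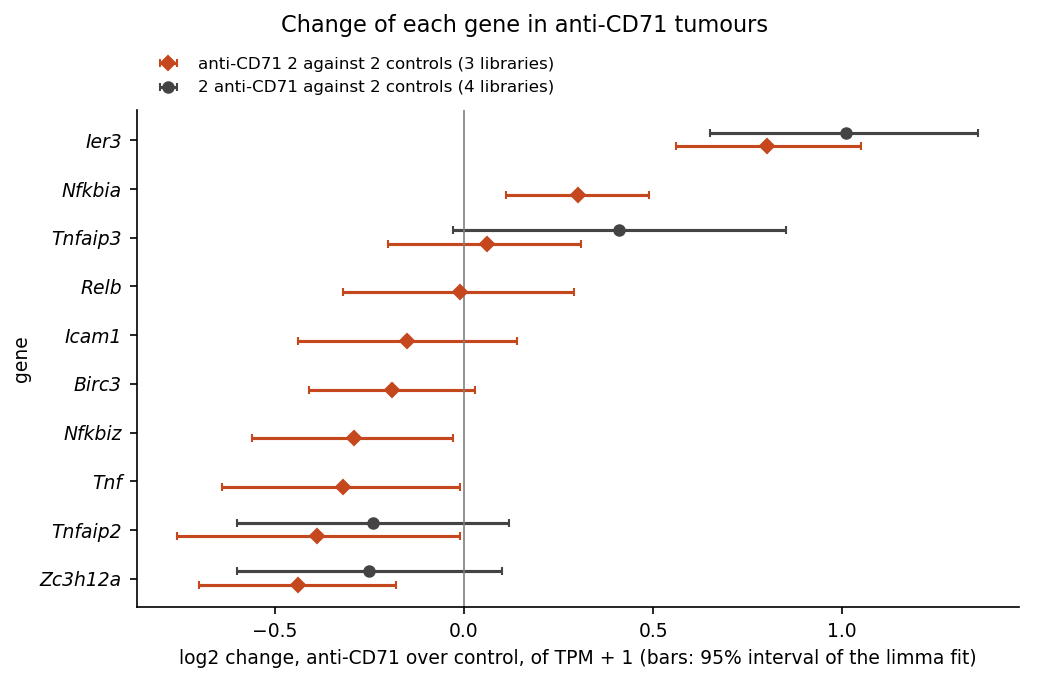
Log2 change of TPM + 1 for each gene with the 95% interval of the limma fit; diamonds compare anti-CD71 replicate 2 with the 2 controls and circles compare all 4 libraries, for the 4 genes tested there. Ier3 lies farthest from 0, at 0.80 and 1.01, and the other 9 genes lie between -0.44 and 0.30 over 3 libraries.

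The 10 genes lay on both sides of the controls. Over the 3 complete libraries, 3 of the 10 lay above both controls and 6 below, where 39.5% and 42.5% of all tested genes lay. Their median log2 change was -0.17. At an unadjusted p under 0.05 stood 6 of the 10 (Ier3 and Nfkbia above, Tnf, Nfkbiz, Tnfaip2 and Zc3h12a below), where 2960 of the 11979 tested genes stood as well. Fewer of the 10 stood there with median scaling, with either looser filter, without an intensity trend or with second-locus copies left out. Over 4 libraries 1 of 4 was called, where 0.832% of all tested genes were called higher. The 2 treated libraries also differed from each other: each of the 4 fully listed genes was higher in replicate 1 than in replicate 2, by 0.52 (Tnfaip3), 0.41 (Ier3), 0.37 (Zc3h12a) and 0.29 (Tnfaip2) log2 units, a direction that 35.3% of tested genes took. The listed copy of Tnf (0.32) and the listed part of Birc3 (0.11) lay the same way.

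By level, the 10 genes spread from Nfkbia, above 88.7% of the 11979 tested genes, and Ier3, above 82.5%, down to Zc3h12a (38.4%), Tnfaip3 (36.4%) and Tnf (22.5%). In the controls Icam1 and Zc3h12a could not be ordered, since the range of one touched that of the other, and the same holds for Tnfaip2 and Relb. Nfkbia and Ier3 were the 2 most abundant members in every complete library. Over listed transcripts in anti-CD71 replicate 1, Ier3 stood at 6.69 times the level of Tnfaip3.

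Further target genes of NF-kappa-B moved in both directions. Of 45 such genes 36 were tested over 3 libraries, of which 4 rose, 5 fell and 27 did not pass, with a median log2 change of -0.05. The neutrophil-attracting chemokine gene Cxcl1 rose from 10.76 and 12.41 TPM to 71.6 TPM, a log2 change of 2.53 (SE 0.12, adjusted p = 0.00416), and Cxcl3 from 1.54 and 1.1 to 12.32 TPM (2.53, adjusted p = 0.0146). The cytokine gene Il1b rose from 12.21 and 10.63 to 48.64 TPM (2.00, adjusted p = 0.00803) and Ptgs2, which makes prostaglandins, from 27.49 and 25.78 to 58.26 TPM (1.10, adjusted p = 0.0198). All 4 lay above both controls by far more than the controls differed, but only in anti-CD71 replicate 2, the lone treated library compared. Epidermis and hair markers also summed to 233.82 TPM in that library, against 0.14 and 0.07 TPM in the controls. Any link was not tested. The TPM of Cxcl3 are the sum of 2 equal copies, and with the copy at a second locus left out it stood at 0.77, 0.55 and 6.16 TPM, under the filter on low values, and was not tested.

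The 5 that fell were Cd83, Bcl2a1b, Bcl2a1d, Cebpd and Ccl5, the last named because it completes the count and chosen after its values were seen. Cd83, found on mature dendritic cells, fell from 19.92 and 24.81 to 6.67 TPM (log2 change -1.60, adjusted p = 0.0251). The survival genes Bcl2a1b (-1.28, adjusted p = 0.0082) and Bcl2a1d (-1.20, adjusted p = 0.0127) fell too, though reads of these near-identical copies may have been divided between them. The transcription factor gene Cebpd (-1.16, adjusted p = 0.0406) and the lymphocyte chemokine gene Ccl5 (-0.82, adjusted p = 0.0291) fell as well. Of these 9 calls over 3 libraries 0 held with no filter on low values (adjusted p 0.068 to 0.232), 1 (Bcl2a1b) with a filter of 1 TPM in 1 library and 3 (Cxcl1, Cxcl3 and Il1b) without an intensity trend.

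Over 4 libraries 8 of these target genes were tested, with 1 higher and 2 lower. Cxcl2, another neutrophil-attracting chemokine gene, stood at 3.21 and 7.19 TPM in the controls and at 52.18 and 29.73 TPM in the treated libraries (log2 change 2.78, SE 0.38, adjusted p = 0.0388). Cd83 fell by 1.33 on the log2 scale (adjusted p = 0.0389) and Bcl2a1d by 1.06 (adjusted p = 0.0284). For both, the 2 treated libraries lay below both controls, with Bcl2a1d at 35.44 and 28.99 TPM against 65.93 and 69.98 TPM. Of these 3 calls 0 held without control replicate 1, without control replicate 2, without anti-CD71 replicate 2, with the replicate number as a block, without an intensity trend, with no filter or when any gene with a listed transcript was tested. With a filter of 1 TPM in 1 library 1 (Bcl2a1d) held, and 2 (Cd83 and Bcl2a1d) held without anti-CD71 replicate 1. Whether these targets differ from the 10 genes was not tested.

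**Figure D3:**
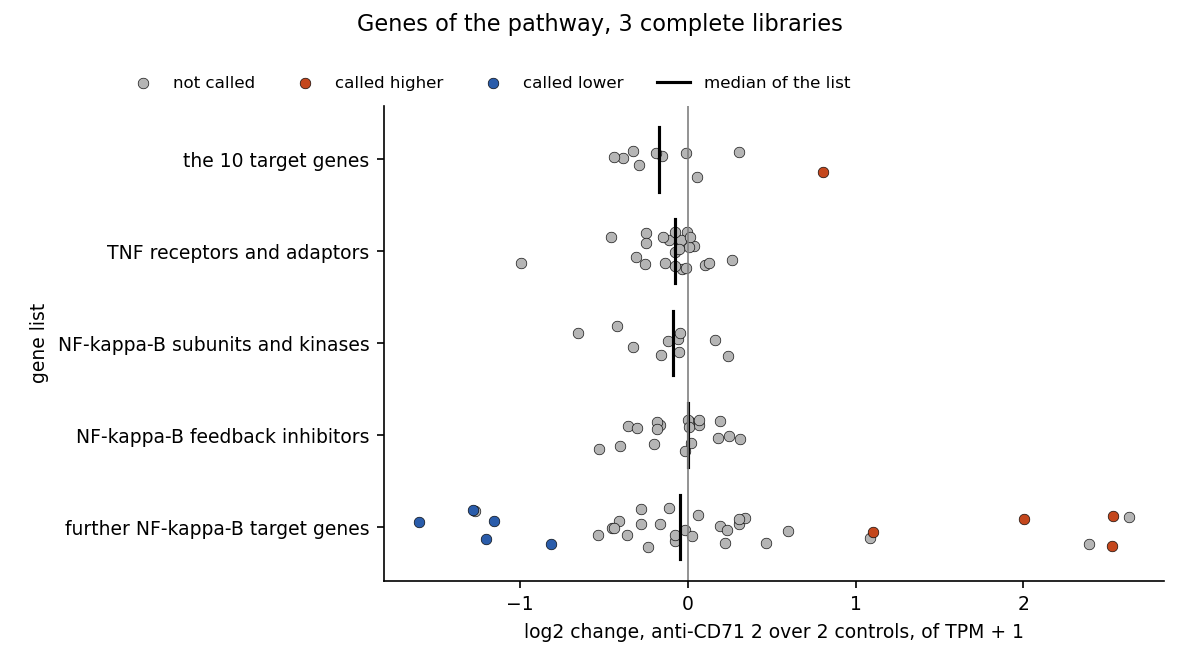
Log2 change of TPM + 1 in anti-CD71 replicate 2 against the 2 controls for each tested gene (points) of the 10 target genes and of 4 further lists; coloured points were called by limma and black bars are medians. Called genes lie in the list of further targets and at Ier3. None lie among receptors and adaptors, subunits and kinases, or feedback inhibitors. These lists are short, and few of all tested genes were called.

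Cell type markers differed between the libraries as well, and their part in the results was not tested. Summed neutrophil markers (11 genes found) stood at 17.16 and 11.67 TPM in the controls and 510.21 TPM in anti-CD71 replicate 2, of which S100a8 gave 265.49 and S100a9 212.99 TPM. The transcript NM_001281852 of S100a9 is in all 4 files, with 3.67 and 0 TPM in the controls and 142.39 and 183.5 TPM in the treated libraries. Macrophage markers summed to 7304.07 and 9310.66 TPM in the controls and 3877.45 TPM in anti-CD71 replicate 2. The median log2 change of these 12 genes was -0.84, beside -0.0082 over all tested genes. Natural killer cell markers summed to 83.28, 86.74 and 23.04 TPM, T cell markers to 25.3, 28.1 and 11.4 TPM, endothelial markers to 97.2, 97.42 and 81.63 TPM, and fibroblast markers to 904.56, 1272.77 and 826.92 TPM. B cell markers summed to at most 2.19 TPM. Over the macrophage markers Csf1r, Mertk and Cd14, fully listed for all 4 libraries, both treated libraries were lower, at 295.93 and 285.87 TPM against 419.51 and 467.09 TPM.

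Epidermis and hair markers separated the 2 treated libraries. They summed to 0.14 and 0.07 TPM in the controls and to 233.82 TPM in anti-CD71 replicate 2. Over the listed transcripts of Dsc1, Krt25 and Krtdap the values were 0.01 and 0.01 TPM in the controls, with 0.02 TPM in anti-CD71 replicate 1 and a higher 67.1 TPM in replicate 2. Ier3 was higher in replicate 1, where these transcripts were near 0, than in replicate 2, and any link between them was not tested. Of the squamous carcinoma markers, the keratin genes Krt8 (1132.27 and 1202.77 TPM) and Krt18 (657.36 and 680.49 TPM) were abundant in the controls. The basal keratin genes Krt5 and Krt14, which usually define squamous epithelium, were at 0 and at most 0.1 TPM there, and at 31.4 and 36.37 TPM in anti-CD71 replicate 2. Tfrc, which encodes the target of the antibody, was at 44.11 and 36.16 TPM in the controls and at 29.0 TPM in the treated library and did not pass (adjusted p = 0.141).

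**Figure D4:**
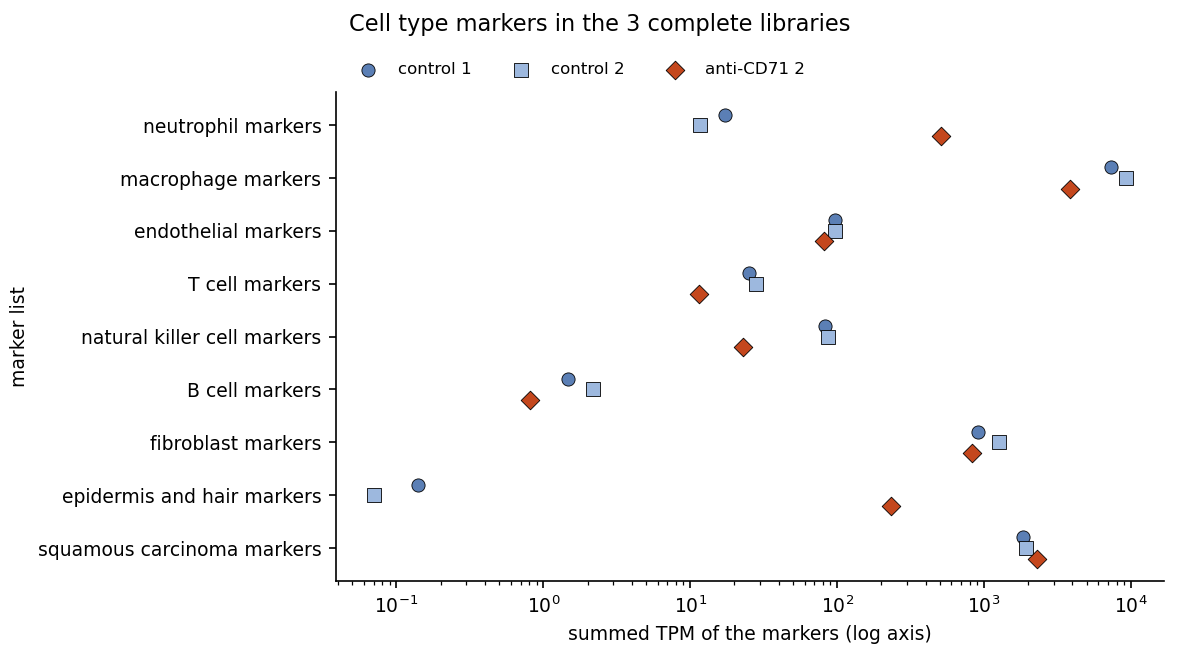
Summed TPM (log axis) of 9 lists of cell type markers in the 3 complete libraries; circles and squares are the controls and diamonds anti-CD71 replicate 2. Neutrophil markers stand at 510.21 TPM and epidermis and hair markers at 233.82 TPM in the treated library, squamous carcinoma markers also lie above both controls, and macrophage, natural killer cell, T cell, endothelial, fibroblast and B cell markers lie below both.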

How the data were processed

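Bulk RNA sequencing libraries of 2 control and 2 anti-CD71 tumours were used. The authors deposited TPM per RefSeq transcript, written to 2 decimals, for which the submitters' processing notes name the build GRCm38.p6. RNA extraction and library preparation were by BGI, per the labels' protocols. Aligner and TPM program: not given in the sources used here. Read depth is unknown, so no counting interval is given. RefSeq's gene table for that build matched 58417 of 59881 transcripts, including 1742 copies at further loci, and TPM were added per gene (17570 genes). The file of anti-CD71 replicate 1 was used in part.

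Comparisons used limma 3.58.1 (R 4.3.3) with an intensity trend, fitted to log2(TPM + 1), on genes with at least 1 TPM in 2 libraries, with Benjamini-Hochberg adjustment. The fit over 4 libraries took genes with at least 90% of TPM in transcripts listed for all, and both fits were run on simulated data. Named pathway genes were, per list, the 4 largest called changes per direction and fit, or the 2 most abundant genes where fewer than 2 were called. The 10 genes and the lists were chosen with earlier results of these data known. Of the listed genes, Ly6g, Klra8 and the older entry Loricrin had no match. Alternatives covered pseudocounts, filters, scaling, variance prior, listing share, a replicate block, left-out replicates and, added after the data were seen, leaving out copies at further loci.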

Additional observations from a re-analysis of the deposited data

How the results depend on the processing

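Genes called over 4 libraries numbered 67, and 1 with no filter on low values, 8 with a filter of 1 TPM in 1 library, 4 without an intensity trend, 4 when any listed transcript sufficed, and 0 to 37 with a replicate left out. Among the 4 tested target genes 1 was called, and 0 with no filter, with the filter of 1 TPM in 1 library, without a trend or when any listed transcript sufficed (6 tested), with 1 at an unadjusted p under 0.05 by limma in each; with a replicate left out 0 to 1 were called and 1 to 2 stood at an unadjusted p under 0.05. With the replicate block 3 genes and 0 of the target genes were called. The replicate numbers come from titles only. The deviations of libraries with the same number had a correlation of -0.01 over genes. A correlation over all genes cannot show whether such libraries shared a batch that moved some genes. Over 3 libraries 343 genes were called, and 0 with no filter (3400 at an unadjusted p under 0.05), 72 with a filter of 1 TPM in 1 library (60 higher, 12 lower), 227 with median scaling and 35 without an intensity trend (13 higher, 22 lower). With anti-CD71 replicate 1 in place of replicate 2, 33 of only 1549 tested genes were called. Of the target genes 1 was called there, and 0 with no filter, with the filter of 1 TPM in 1 library or without a trend. Why the filter and the trend move the counts was not tested. Among the 10 target genes the sign turned for Birc3, at -0.19 over all transcripts and 0.25 over its listed ones, and for Relb, at 0.028 with median scaling and -0.12 to 0.09 with a control left out. Among the other named genes, signs turned for Rbck1 (-0.011 to 0.041) and Zfp36l2 (-0.016 to 0.15) with a control left out. Over 3 libraries a left-out control leaves 1 against 1, which gives a change but no test. Other pseudocounts and leaving out second-locus copies did not end the call of Ier3. Without counts, the precision of low values such as those of Tnf is unknown.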
